A study of Mus musculus with 26 samples.

Results

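The 42 genes described here make the proteins of meiosis and of germline genome defence. They were taken by name from the gene tables of 15 poly(A) RNA-seq libraries made from mouse embryonic stem cells (mESCs). All 42 genes had a row among the 24015 genes of those tables, and 35 of them passed a filter on low values that 13477 genes passed in all (at least 1 RPKM in at least 2 libraries). RPKM is reads per kilobase of gene model, scaled to library size, so levels of different genes can be compared on it.

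The study asked what the transcription factor Prdm14 and its co-repressor partner Mtgr1 do in mESCs. All lines carried the Stella:GFP reporter, a GFP reporter of the germ cell gene Stella. Every line was kept in 2i+LIF, a serum-free medium with the MEK inhibitor PD0325901 and the GSK3β inhibitor CHIR99021. All but the wt 2i+LIF samples then spent 5 days in serum+LIF without feeder cells. The conditions were wt in serum+LIF (1 library), wt in 2i+LIF (2 libraries), Prdm14-/- (clones G6 and F10), Prdm14-/- carrying FLAG-HA-Prdm14 (FH-Prdm14, from G6 and F10), Prdm14-/- carrying FLAG-HA-Prdm14 with the E294K substitution (E294K, from G6 and F10), Mtgr1-/- (clones A3, C1 and C3) and Mtgr1-/- carrying FLAG-HA-Mtgr1 (FH-Mtgr1, from A3, C1 and C3). The knockout lines were made with CRISPR-Cas9 and each was 1 clone, and the E294K change lies on the surface of Prdm14 that binds Mtgr1. Each p-value rests on a spread that was estimated per gene over all 7 conditions together. That spread is between clones in the lines with a knockout and between the 2 libraries in wt 2i+LIF. The 1 wt serum+LIF library has no spread of its own.

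Meiosis holds sister chromatids together with its own cohesins, builds a protein axis on each chromosome, breaks and repairs DNA, and zips homologous chromosomes together with the synaptonemal complex. In the germline, Piwi proteins loaded with small piRNAs silence transposons, with the help of Tudor domain proteins. In somatic cells most of these genes are silenced by DNA methylation of CpG-rich promoters and, in mESCs, also by the Polycomb complex PRC1.6, whose subunits Mga and Max bind the E-box CACGTG and whose subunit E2f6 binds E2F sites.

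The libraries held between 10668572 and 21218414 reads on genes (median 13793727). Summed over 7 mESC markers, RPKM lay between 1507 and 4430 in every library, whereas 8 markers of spermatogonia, spermatocytes and spermatids summed to at most 7.67. Prdm14 RNA lay on both sides of the wt serum+LIF library (2.77 RPKM) in Prdm14-/-, at 1.96 to 3.60 RPKM, and it was 79.8 to 116 RPKM in FH-Prdm14, above the 19.12 to 30.8 RPKM of wt 2i+LIF. Cbfa2t2, which encodes Mtgr1, was 18.02 to 19.9 RPKM in Mtgr1-/- and 25.5 to 28.0 RPKM in FH-Mtgr1. Its level was 40.66 RPKM in wt serum+LIF, and in Prdm14-/- it was 16.58 to 16.83 RPKM, below Mtgr1-/-. Both knockouts are small CRISPR lesions in 1 exon, so the RNA level does not test the labels.

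The promoters come first, because they show what the genes share in sequence. RefSeq promoters (build GRCm38.p6) were matched by symbol for 36 of the 42 genes, giving 46 promoters. Tex11, Tex15, Tdrd6, Piwil2, Mybl1 and Spo11 had no entry. The 250 bases before the transcription start were searched on both strands for the E-box CACGTG, for the E2F site GCGGGAA and for the Prdm14 motif GGTCTCTAA. These motifs do not overlap each other in letters. An E-box lay in 18 of the 46 promoters (39.1%), against 6.02% of all 32851 promoters and 8.47% of the 12640 promoters of genes that passed the filter. Counted by gene, 15 of 36 members (41.7%) had 1 in at least 1 promoter, against 10.1% of the genes that passed the filter. The E2F site lay in 9 member promoters (19.6%), against 3.82% of all and 6.93% of those of genes that passed the filter, and both motifs lay in 6 (13.0%, against 0.338% and 0.625%). The Prdm14 motif lay in 0 member promoters and in 0.24% of all promoters. The median CpG content was 5.8 per 100 bases in the members, 2.4 in all promoters and 6.0 in those of genes that passed the filter. A match is a description of letters, and promoters of 1 gene can overlap, as those of Hormad1 do.

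The 5 promoters below belong to genes whose levels the results turn on: the axis genes Hormad1 and Sycp3 with both motifs, Mael with the E-box alone, Smc1b with the E2F site alone, and Dazl with neither. Capitals mark an E-box or an E2F site in either orientation, each sequence runs 5′ to 3′ on the strand of the gene, and the last base is the one before the start site. Hormad1 is at chr3:95559427-95559676, forward strand, Sycp3 at chr10:88459337-88459586, forward strand, Mael at chr1:166238745-166238994, reverse strand, Smc1b at chr15:85131958-85132207, reverse strand and Dazl at chr17:50293621-50293870, reverse strand.
Hormad1: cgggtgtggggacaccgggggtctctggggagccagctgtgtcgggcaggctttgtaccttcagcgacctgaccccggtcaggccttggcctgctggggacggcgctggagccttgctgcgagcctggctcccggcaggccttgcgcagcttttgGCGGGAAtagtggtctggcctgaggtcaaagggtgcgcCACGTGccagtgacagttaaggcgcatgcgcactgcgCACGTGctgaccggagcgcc
Sycp3: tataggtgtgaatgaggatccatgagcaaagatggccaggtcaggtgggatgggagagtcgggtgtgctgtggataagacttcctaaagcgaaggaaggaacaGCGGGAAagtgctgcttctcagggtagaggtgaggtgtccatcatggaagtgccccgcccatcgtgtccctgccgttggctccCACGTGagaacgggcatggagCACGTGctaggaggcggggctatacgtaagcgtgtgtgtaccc
Mael: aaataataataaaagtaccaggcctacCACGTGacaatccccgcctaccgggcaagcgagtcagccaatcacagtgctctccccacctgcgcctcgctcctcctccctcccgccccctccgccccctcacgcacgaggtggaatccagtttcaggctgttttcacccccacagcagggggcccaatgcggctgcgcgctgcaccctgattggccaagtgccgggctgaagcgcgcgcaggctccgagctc
Smc1b: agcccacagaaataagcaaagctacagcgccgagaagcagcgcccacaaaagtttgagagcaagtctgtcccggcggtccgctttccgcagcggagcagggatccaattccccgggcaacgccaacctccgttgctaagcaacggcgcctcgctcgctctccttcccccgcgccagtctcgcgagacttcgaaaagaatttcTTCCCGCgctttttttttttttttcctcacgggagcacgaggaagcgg
Dazl: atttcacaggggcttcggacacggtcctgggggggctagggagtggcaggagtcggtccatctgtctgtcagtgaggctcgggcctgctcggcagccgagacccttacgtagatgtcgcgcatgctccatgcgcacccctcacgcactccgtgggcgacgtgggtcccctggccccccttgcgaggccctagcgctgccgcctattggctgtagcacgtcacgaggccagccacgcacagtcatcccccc
In Hormad1 the E-boxes begin 57 and 20 bases before the start and the E2F site 95 bases before it. In Sycp3 they begin 64 and 43 bases before the start, with the E2F site at 147. The E-box of Mael is farther away, at 223 bases, and the E2F site of Smc1b lies at 48 bases. These 5 do not stand for the rest: Ddx4 also has both motifs and Tdrd1 an E-box, and neither passed the test between Mtgr1-/- and FH-Mtgr1, whereas Syce3, Tdrd12 and Tex101 have neither motif and were lower in Mtgr1-/-.

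Over the 42 genes together, the Mtgr1-/- libraries stood lowest. Their reads per 1000000 reads on genes were 313, 316 and 208 in Mtgr1-/- clones A3, C1 and C3, and 769, 773 and 758 in FH-Mtgr1. They were 886 in wt serum+LIF, 547 and 579 in wt 2i+LIF, 440 and 579 in Prdm14-/- (G6 and F10), 756 and 726 in FH-Prdm14 and 604 and 574 in E294K. Thus the 3 Mtgr1-/- libraries were below all 12 others. In bulk RNA, fewer cells with a transcript cannot be told apart from less RNA per cell.

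**Figure D1:**
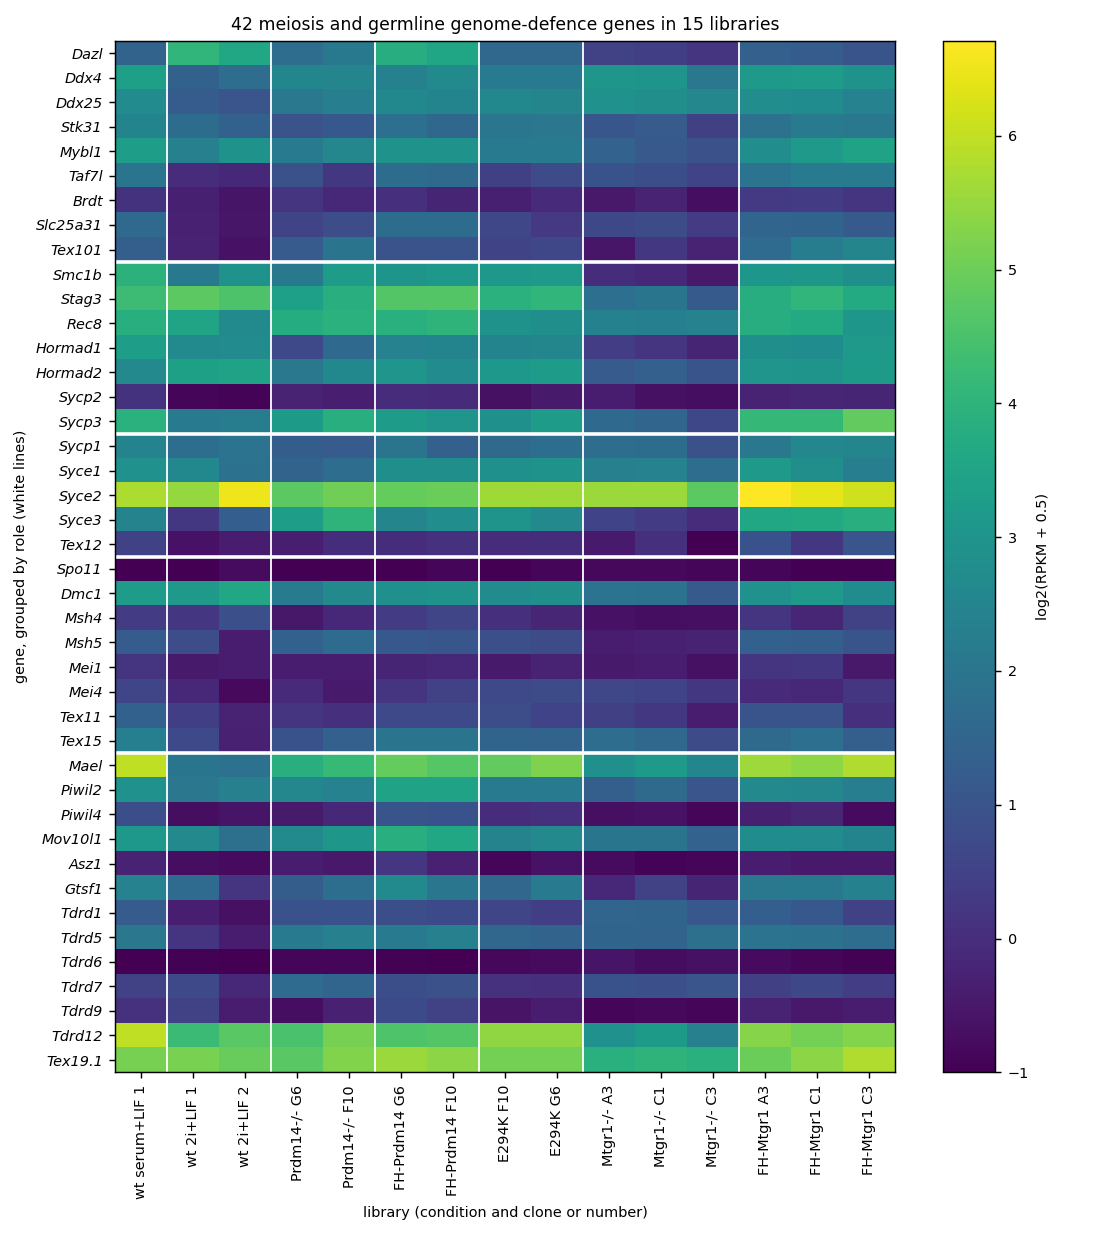
Level of each of the 42 genes (rows, grouped by role between the white lines) in each of the 15 libraries (columns), as log2(RPKM + 0.5) on the colour scale. The 3 Mtgr1-/- columns are darker than the 3 FH-Mtgr1 columns for most axis genes, and Spo11 and Tdrd6 are dark in every column.

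The first comparison asks what the loss of Mtgr1 does, with the rescued lines as reference. Of the 35 genes that passed the filter, 25 were lower in Mtgr1-/- than in FH-Mtgr1 and 0 were higher (limma over all 15 libraries, Benjamini-Hochberg adjusted p below 0.05). Across all 13477 genes 26.1% were lower and 26.2% higher. At an unadjusted p below 0.05, 2 members were higher and 26 lower, a threshold at which the share of all genes is not given here. Voom on the recovered reads called 25 lower and 0 higher. The median log2 fold change of the members was -1.15, beside -0.01 for all genes. Of the 25 lower members, 20 fell at least 2-fold, and the share of all genes that did so is not given here. For 25 of the 35 members every Mtgr1-/- library was below every FH-Mtgr1 library, which was so for 31.1% of all genes. Leaving out any 1 library left 25 to 28 members lower. After adjustment for GC content 25 were lower and 1 higher. All log2 fold changes below are of RPKM + 0.5, given with their standard error, so they understate the change of genes with low levels. Values per library are in the order A3, C1 and C3 for the Mtgr1 lines, G6 and F10 for the Prdm14 lines, and 1 and 2 for wt 2i+LIF.

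**Figure D2:**
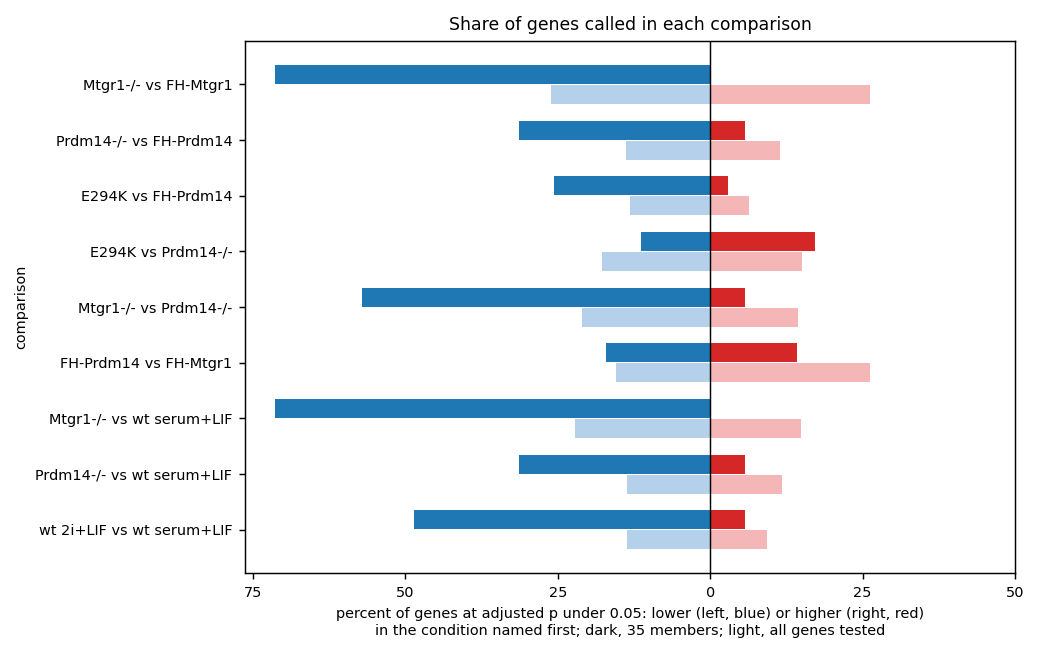
Percent of genes at an adjusted p below 0.05 in each of 9 comparisons: dark bars, the 35 members; light bars, all 13477 genes tested; left and blue, lower in the condition named first; right and red, higher in it. The longest bars are for members lower in Mtgr1-/-, at 71.4% against FH-Mtgr1 (26.1% of all genes) and 71.4% against wt serum+LIF (22.1% of all genes).

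The cohesins and axis proteins fell as a group, with 6 of 6 tested members lower and a median log2 fold change of -2.51. Smc1b, the meiotic SMC1 subunit of cohesin, was 0.504, 0.397 and 0.218 RPKM in Mtgr1-/- and 7.82, 7.87 and 6.65 RPKM in FH-Mtgr1. It was 15.1 RPKM in wt serum+LIF. The Mtgr1-/- values did not overlap those of any other condition, and the log2 fold change to FH-Mtgr1 was -3.20 ± 0.27 (adjusted p = 4.08e-06). Stag3, the cohesin subunit specific to meiosis that pairs with Rec8, was 2.99, 3.48 and 1.75 RPKM in Mtgr1-/-, 13.6, 16.5 and 12.7 RPKM in FH-Mtgr1 and 19.15 RPKM in wt serum+LIF. Again no other library reached down to the Mtgr1-/- values, and the log2 fold change was -2.22 ± 0.20 (adjusted p = 7.2e-06). Rec8, the meiotic kleisin that sister chromatid cohesion depends on, changed less, with 4.69, 4.5 and 4.85 RPKM in Mtgr1-/- against 13.4, 12.6 and 7.88 RPKM in FH-Mtgr1 and a log2 fold change of -1.15 ± 0.22 (adjusted p = 0.000905).

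Hormad1, a HORMA domain protein of the unsynapsed axis, was 0.809, 0.606 and 0.368 RPKM in Mtgr1-/-, 6.69, 6.22 and 8.23 RPKM in FH-Mtgr1 and 9.39 RPKM in wt serum+LIF. The groups did not overlap, and the log2 fold change was -2.80 ± 0.22 (adjusted p = 3.12e-06). Sycp3, a structural protein of the axis, was 2.63, 2.37 and 1.1 RPKM in Mtgr1-/- and 17.1, 17.2 and 28.7 RPKM in FH-Mtgr1, with 14.8 RPKM in wt serum+LIF. Its highest Mtgr1-/- library was below its lowest library of any other condition, and the log2 fold change was -3.10 ± 0.28 (adjusted p = 5.93e-06). Chpt1 overlaps Sycp3 on the opposite strand in the annotation, and whether counting used strand is not given in the sources used here, so their reads cannot be told apart. Hormad2, the partner of Hormad1, fell by 1.87 on the log2 scale.

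Of the 5 genes of the synaptonemal complex centre, 4 were lower, with a median of -1.14. Syce3, a central element protein, had the largest drop of the 35 members tested: 0.964, 0.8 and 0.479 RPKM in Mtgr1-/- against 11.5, 12.3 and 13.9 RPKM in FH-Mtgr1, a log2 fold change of -3.40 ± 0.27 (adjusted p = 3.05e-06). The groups did not overlap, and wt serum+LIF lay between them at 5.01 RPKM. Syce2, the member with the highest level in any library (104 RPKM in FH-Mtgr1 A3), was 45.9, 46.9 and 26.6 RPKM in Mtgr1-/- and 104, 84.8 and 70.3 RPKM in FH-Mtgr1. Its log2 fold change was -1.14 ± 0.26 (adjusted p = 0.00319). Tex12 and Sycp1, the transverse filament protein, were also lower (-1.20 and -0.92), and Sycp1 lost its call when values were adjusted for GC content (adjusted p = 0.0552). Tex12 reached 1 RPKM only in FH-Mtgr1 A3 and C3, so it passed the filter only through the group where it is high. Its place among the 4 lower genes here, and among the 25 in all, is therefore partly built in. It had 3, 6 and 0 reads in Mtgr1-/- and 12, 9 and 12 in FH-Mtgr1. Syce1 did not pass, at -0.58 ± 0.25 (adjusted p = 0.067), but did with a replicate block for the parental clone (adjusted p = 0.0287).

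Recombination genes split: 3 of 6 tested were lower, with a median of -0.71. Msh5, which with Msh4 stabilizes crossover intermediates, was 0.268, 0.306 and 0.336 RPKM in Mtgr1-/- and 2.08, 2.02 and 1.52 RPKM in FH-Mtgr1, a log2 fold change of -1.55 ± 0.25 (adjusted p = 0.000288). Dmc1, the meiotic strand exchange recombinase, fell by 1.27 and Msh4 by 0.84 on that scale. Mei4, required for double-strand breaks, did not pass, at 0.47 ± 0.21 (adjusted p = 0.0795), and neither did Tex15 (-0.24 ± 0.29, adjusted p = 0.505). Tex11 was at -0.58 ± 0.30 (adjusted p = 0.121), and passed with the replicate block (adjusted p = 0.0287). Gm16875 overlaps Mei4 on the opposite strand.

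Among the piRNA and Tudor genes 6 of 10 were lower, with a median of -1. Mael, which acts in piRNA production and transposon silencing, was 6.83, 8.48 and 5.37 RPKM in Mtgr1-/-, 47.5, 42.1 and 55.3 RPKM in FH-Mtgr1 and 61.7 RPKM in wt serum+LIF. The groups did not overlap, although wt 2i+LIF was lower still, and Mael had a log2 fold change of -2.74 ± 0.17 (adjusted p = 1.13e-06). Tdrd12, a Tudor protein of secondary piRNA production, was 7.03, 8.74 and 4.57 RPKM in Mtgr1-/-, 39.4, 33.9 and 38.0 RPKM in FH-Mtgr1 and 62.1 RPKM in wt serum+LIF. No library of another condition was as low as Mtgr1-/-, and the log2 fold change was -2.41 ± 0.22 (adjusted p = 6.19e-06). Piwil2, the Piwi protein of fetal germ cells and spermatogonia, was 2.03, 2.67 and 1.56 RPKM in Mtgr1-/- and 5.65, 5.47 and 4.41 RPKM in FH-Mtgr1 (-1.15 ± 0.17 on the log2 scale, adjusted p = 0.000163). Mov10l1, the helicase that passes piRNA precursors to Piwi proteins, was 3.47, 3.43 and 2.18 RPKM in Mtgr1-/- and 6.24, 6.09 and 5.1 RPKM in FH-Mtgr1 (-0.86 ± 0.22, adjusted p = 0.00577). Gtsf1, a Piwi cofactor, and Tex19.1, which restrains retrotransposons, fell by 2.15 and 1.45 on the log2 scale. Tex19.1 has the close paralog Tex19.2, and how the counting shared reads between them is not given in the sources used here. Piwil4 (-0.32 ± 0.19, adjusted p = 0.175), Tdrd1, Tdrd5 and Tdrd7 did not pass. Tdrd1 and Tdrd7 had positive log2 fold changes of 0.40 and 0.43.

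Of the other germ cell genes, 6 of 8 tested were lower, with a median of -0.99. Tex101, a glycoprotein of the germ cell surface, was 0.184, 0.682 and 0.335 RPKM in Mtgr1-/- and 2.75, 4.25 and 5.22 RPKM in FH-Mtgr1, a log2 fold change of -2.34 ± 0.27 (adjusted p = 2.84e-05). The transcription factor Mybl1 fell by 1.96 and the Tudor protein Stk31 by 1.14 on that scale. Taf7l, a germ cell paralog of a TFIID subunit, was 1.4, 1.29 and 1.00 RPKM in Mtgr1-/- and 3.3, 4.02 and 3.98 RPKM in FH-Mtgr1 (-1.30 ± 0.19, adjusted p = 0.000142). Dazl, an RNA-binding protein of germ cells, was 0.916, 0.859 and 0.625 RPKM in Mtgr1-/- and 2.06, 1.88 and 1.51 RPKM in FH-Mtgr1 (-0.83 ± 0.18, adjusted p = 0.00186). Slc25a31, an ADP/ATP carrier of germ cells, was 1.08, 1.21 and 0.795 RPKM against 2.34, 2.32 and 1.79 RPKM (-0.80 ± 0.18, adjusted p = 0.00241). For each of these 4 genes with values the groups did not overlap. The RNA helicases Ddx4 and Ddx25 did not pass, at -0.41 ± 0.23 (adjusted p = 0.15) and 0.11 ± 0.15 (adjusted p = 0.555). Markers of cell types moved beside these genes. The 7 mESC markers summed to 1507 to 1777 RPKM in Mtgr1-/- and 2508 to 3424 RPKM in FH-Mtgr1, with 2 lower and 2 higher by the test. Most of that gap was carried by Dppa5a, at 419, 494 and 295 RPKM against 1189, 1165 and 1830 RPKM. Sall4 went the other way, at 83.2, 86.7 and 85.3 RPKM against 46.8, 50.6 and 49.1 RPKM. The 6 primitive endoderm markers summed to 2.15 to 4.75 RPKM against 8.89 to 14.4 RPKM, and 3 of the 4 tested were lower. The 2-cell-like markers summed to 1.11 to 8.89 RPKM in Mtgr1-/- and 1.48 to 4.07 RPKM in FH-Mtgr1, with 3 of the 8 listed at 0 in all libraries. The spermatogenic markers summed to 1.06 to 1.34 RPKM against 3.34 to 3.74 RPKM, a difference carried by Stra8. Stra8 was 0.167, 0.266 and 0.0607 RPKM in Mtgr1-/- and 1.79, 2.46 and 2.54 RPKM in FH-Mtgr1, and it was the only 1 of the 8 tested. The 6 primordial germ cell markers summed to 61.7 to 74.8 RPKM against 66.5 to 68.1 RPKM. All 3 fibroblast markers tested moved, in cultures kept without feeder cells, with Col1a1 and Col1a2 higher (1.73 and 1.77) and Thy1 lower (-1.74). The part of these markers in the result was not tested.

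**Figure D3:**
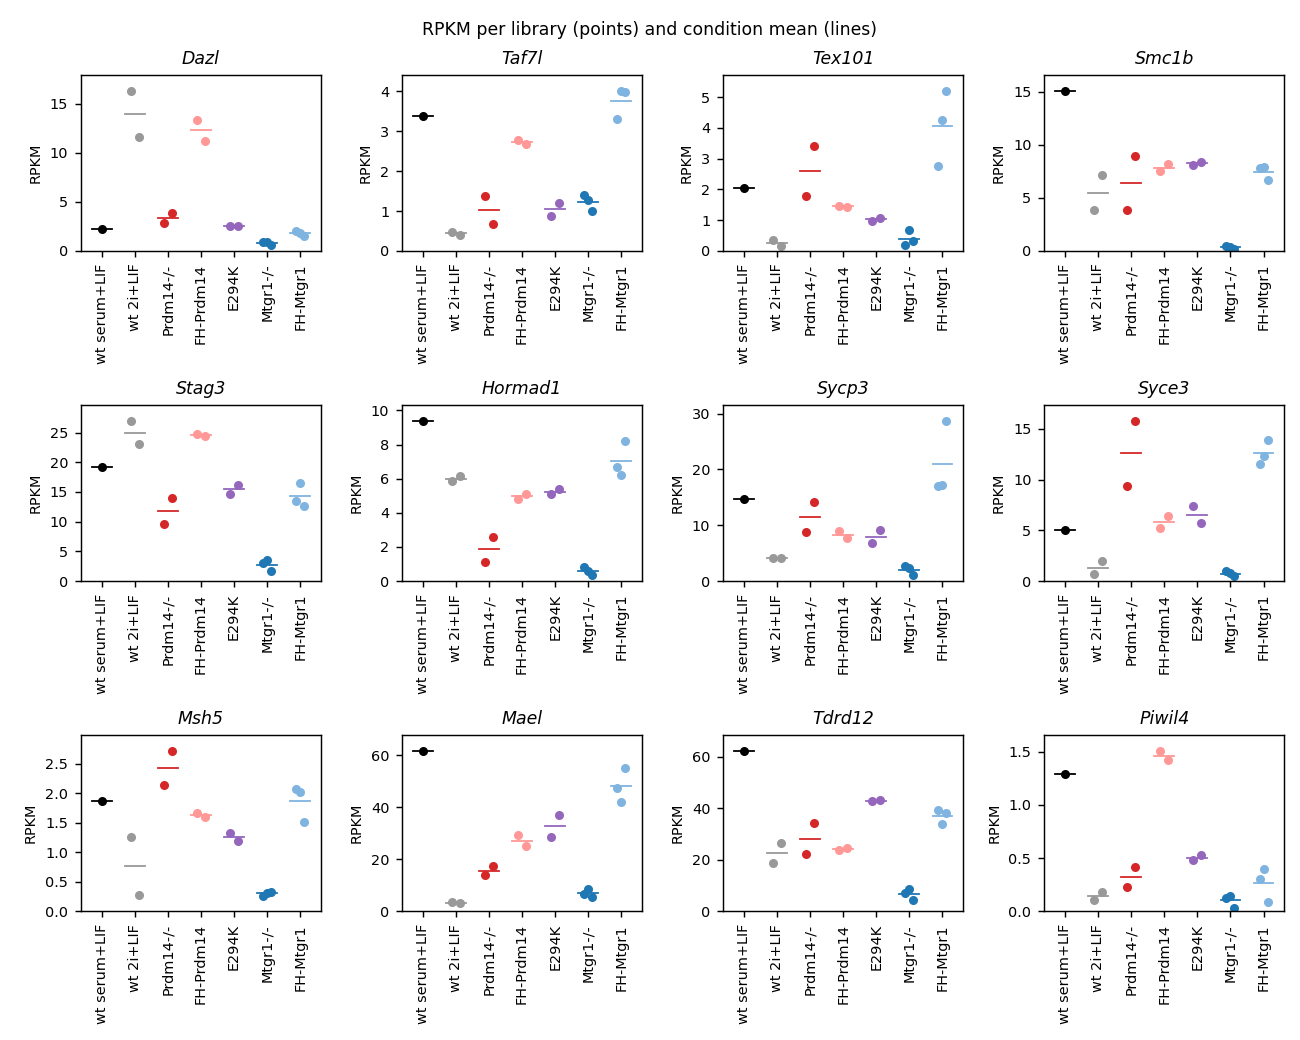
RPKM of 12 genes in each library (points) with the mean of each condition (short lines). The Mtgr1-/- points lie below those of all other conditions for Dazl, Smc1b, Stag3, Hormad1, Sycp3 and Tdrd12, and Dazl is highest in wt 2i+LIF and FH-Prdm14.

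Measured against the wt serum+LIF library, Mtgr1-/- again had 25 members lower and 0 higher, with a median of -1.32, beside -0.11 for all genes. Of all genes 22.1% were lower and 14.9% higher. Voom also called 25 lower and 0 higher. The largest drops were Smc1b at -4.17 ± 0.38 (adjusted p = 3.09e-05), Hormad1 at -3.20 ± 0.32 (adjusted p = 4.75e-05), Tdrd12 at -3.15 ± 0.31 (adjusted p = 4.53e-05) and Mael at -3.09 ± 0.25 (adjusted p = 1.62e-05). Syce3 fell by 2.16 on the log2 scale and Piwil4 by 1.57. This comparison shares the Mtgr1-/- libraries with the one before, so it is not a second set of Mtgr1-/- samples, and its reference is 1 library whose spread was taken from the other conditions. Median-of-ratios scaling moved the median of all genes from -0.11 to 0.02 and the share of all calls that were higher from 40.2% to 52.0%, and left 24 members lower. Adjustment for GC content left 21, without Dazl (adjusted p = 0.154), Sycp1 (adjusted p = 0.589), Msh4 (adjusted p = 0.104) and Tex11 (adjusted p = 0.114).

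The second comparison sets Prdm14-/- against FH-Prdm14, which overexpresses Prdm14. Prdm14 RNA was 79.8 to 116 RPKM in FH-Prdm14 and 2.77 RPKM in wt serum+LIF. Loss and overexpression of Prdm14 therefore cannot be told apart in this comparison. In Prdm14-/- 11 members were lower and 2 higher than in FH-Prdm14, beside 13.8% of all genes lower and 11.4% higher, and the median of the members was -0.53 (all genes, -0.09). The count of 13 dropped to 6 without Prdm14-/- G6, to 6 without FH-Prdm14 G6 and to 6 without FH-Prdm14 F10, and was 12 without Prdm14-/- F10. By role, 3 of 8 germ cell genes, 2 of 6 cohesin and axis genes and 4 of 10 piRNA and Tudor genes were lower. The calls for Dazl, Piwil2, Piwil4, Slc25a31 and Taf7l held whichever library was left out. Dazl was 2.88 and 3.86 RPKM in Prdm14-/- and 13.4 and 11.2 RPKM in FH-Prdm14, a log2 fold change of -1.73 ± 0.22 (adjusted p = 0.000169). The high group here is FH-Prdm14, since wt serum+LIF had 2.25 RPKM. Piwil4, the nuclear Piwi protein of fetal germ cells, was 0.229 and 0.413 RPKM in Prdm14-/-, 1.5 and 1.42 RPKM in FH-Prdm14 and 1.29 RPKM in wt serum+LIF. Its log2 fold change was -1.26 ± 0.23 (adjusted p = 0.002), and Gm10706 overlaps it on the opposite strand. Outside FH-Prdm14 only the wt serum+LIF library reached 1 RPKM, so Piwil4 passed the filter only with FH-Prdm14, where it is high. Its call against FH-Prdm14 is thus partly built in. The filter was not redone when a library was left out. Piwil2 was 5.42 and 4.82 RPKM against 10.4 and 10.4 RPKM (-0.96 ± 0.21, adjusted p = 0.00531). Slc25a31 was 0.981 and 1.25 RPKM against 2.84 and 2.82 RPKM (-1.05 ± 0.21, adjusted p = 0.00395), and Taf7l was 1.38 and 0.684 RPKM against 2.78 and 2.68 RPKM (-1.11 ± 0.23, adjusted p = 0.00424). In all 5 genes the groups did not overlap, but with 2 libraries per group this adds little, and the share of all genes was not counted.

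Each of the other calls between Prdm14-/- and FH-Prdm14 was lost without at least 1 library. Hormad1 was 1.12 and 2.6 RPKM in Prdm14-/- and 4.83 and 5.12 RPKM in FH-Prdm14 (-1.29 ± 0.28, adjusted p = 0.00492), but without Prdm14-/- G6 its adjusted p was 0.057. Mael was 14.1 and 17.3 RPKM against 29.4 and 24.96 RPKM (-0.78 ± 0.21, adjusted p = 0.0189). Its adjusted p became 0.153 without Prdm14-/- G6, 0.137 without FH-Prdm14 G6 and 0.053 without FH-Prdm14 F10. Stag3 was 9.63 and 14.0 RPKM against 24.7 and 24.4 RPKM (-1.05 ± 0.25, adjusted p = 0.00953), and the same 3 omissions gave 0.112, 0.0582 and 0.0571. Mov10l1 was 5.96 and 7.92 RPKM against 13.7 and 11.7 RPKM (-0.84 ± 0.27, adjusted p = 0.037), and they gave 0.247, 0.19 and 0.0985. Syce3 was higher in Prdm14-/-, at 9.36 and 15.8 RPKM against 5.21 and 6.38 RPKM (1.01 ± 0.33, adjusted p = 0.0419), with an adjusted p of 0.248 without Prdm14-/- F10, 0.201 without FH-Prdm14 G6 and 0.105 without FH-Prdm14 F10. Tdrd7 was the other gene called higher (0.73 ± 0.24, adjusted p = 0.0437), and Syce1 (-1.25 ± 0.30, adjusted p = 0.0101) and Msh4 (-0.82 ± 0.27, adjusted p = 0.0429) were called lower. All 3 lost the call without Prdm14-/- G6 (adjusted p of 0.206, 0.0907 and 0.246), without FH-Prdm14 G6 (0.164, 0.0576 and 0.0969) and without FH-Prdm14 F10 (0.148, 0.061 and 0.218), and Tdrd7 and Msh4 also without Prdm14-/- F10 (0.0758 and 0.0504). Msh4 reached 1 RPKM only in FH-Prdm14 F10 and wt 2i+LIF 2, so it too passed the filter only with FH-Prdm14. Smc1b (-0.38 ± 0.33, adjusted p = 0.435), Sycp3 (0.41 ± 0.34, adjusted p = 0.419), Tdrd12 (0.19 ± 0.27, adjusted p = 0.635), Tex101 (0.61 ± 0.33, adjusted p = 0.199) and Rec8 (-0.11 ± 0.27, adjusted p = 0.8), all lower in Mtgr1-/-, did not pass here. In FH-Prdm14 the 2-cell-like markers were also high, at 43.9 to 74.8 RPKM in sum against at most 8.89 RPKM in all other libraries. The primordial germ cell markers summed to 178 to 180 RPKM in FH-Prdm14 and 90.5 to 109 RPKM in Prdm14-/-. Of these 6 markers, 2 were lower and 1 higher in Prdm14-/-. Kit was 6.3 and 7.7 RPKM in Prdm14-/- and 67.6 and 67.9 RPKM in FH-Prdm14. Dnd1 went the other way, at 32.1 and 28.7 RPKM against 14.4 and 14.0 RPKM. The mESC markers summed to 2946 to 3649 RPKM in Prdm14-/- and 4100 to 4299 RPKM in FH-Prdm14, with Pou5f1, Nanog and Sall4 lower (-0.94, -1.33 and -0.75) and 1 of the 7 higher. The primitive endoderm markers summed to 5.00 to 15.6 RPKM against 4.32 to 5.52 RPKM, with Gata4 higher (1.35), and of 3 fibroblast markers tested Col1a2 was higher (1.67). The part of these markers in the result was not tested.

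**Figure D4:**
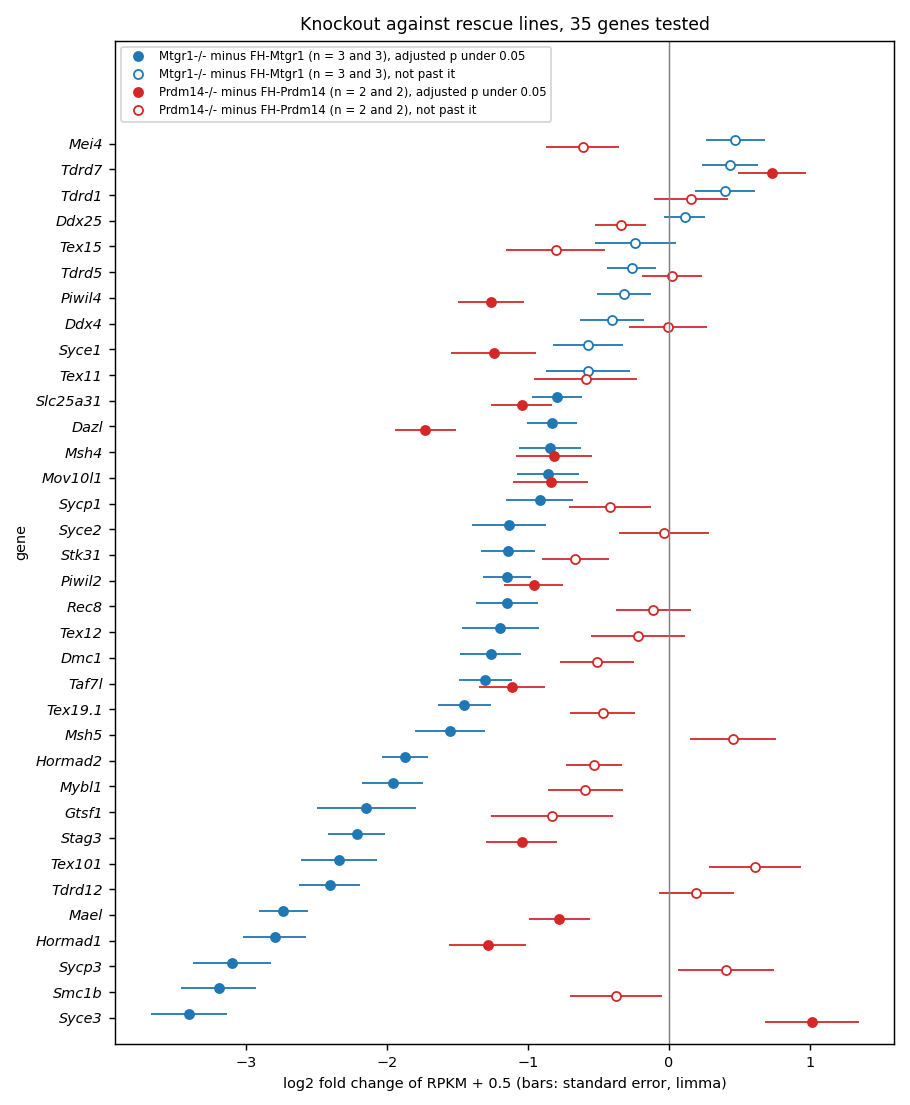
Log2 fold change of RPKM + 0.5 with its standard error for the 35 members tested, knockout minus rescue, in the Mtgr1 lines (blue) and the Prdm14 lines (red), with filled points at an adjusted p below 0.05. Blue points reach -3.40 (Syce3) while the red point of the same gene is at 1.01.

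A test of the difference between the knockout effects, added after the data had been seen, compared (Mtgr1-/- minus FH-Mtgr1) with (Prdm14-/- minus FH-Prdm14). The Prdm14 term holds the overexpression in FH-Prdm14 as well as the loss in Prdm14-/-. The Mtgr1 effect was more negative for 13 members and less negative or positive for 3, beside 14.3% and 17.1% of all genes. Of these 16 genes 10 passed in every alternative tried: Syce3, Sycp3, Tex101, Smc1b, Tdrd12, Msh5, Mael, Hormad1, Mybl1 and Hormad2. The differences of the first 3 were -4.42, -3.50 and -2.96 on the log2 scale. Without FH-Prdm14 F10 the count was 10. Set directly against Prdm14-/-, Mtgr1-/- had 20 members lower and 2 higher (21.1% and 14.4% of all genes), with a median of -0.73 (all genes, -0.04). Without Prdm14-/- F10 that count of 22 was 15. In that comparison the cohesin and axis group had 6 of 6 lower, but Hormad1 lost its call without Prdm14-/- F10 (-0.59, adjusted p = 0.0954) and with only the compared conditions (adjusted p = 0.0567). The group was led by Smc1b at -2.89 ± 0.30 (adjusted p = 4.65e-05), and Syce3 was at -3.36 ± 0.30 (adjusted p = 2.4e-05). Against wt serum+LIF, Prdm14-/- had 11 members lower and 2 higher (13.7% and 11.7% of all genes), with a median of -0.84 (all genes, -0.05). That count of 13 was 4 without Prdm14-/- G6 and 12 without F10, and a fit on these 3 libraries alone called 1.

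The E294K lines ask how these genes respond when the added Prdm14 is changed at the surface that binds Mtgr1. Prdm14 RNA was 89.9 to 105 RPKM in E294K and 79.8 to 116 RPKM in FH-Prdm14, so both overexpress it. Between E294K and FH-Prdm14, 9 members were lower and 1 higher (13.2% and 6.35% of all genes), with a median of -0.28 (all genes, -0.06). The 9 include Piwil4, which passed the filter only with FH-Prdm14, so that call is partly built in. With a replicate block for the parental clone, 18 members were called, of which 15 lower. The share of all genes under that block is not given here, so the rise is not a result about the members. The count of 10 was 3 without E294K F10, 5 without E294K G6, 3 without FH-Prdm14 G6 and 5 without FH-Prdm14 F10, and the calls for Dazl, Piwil2 and Slc25a31 held in each. Dazl was 2.5 and 2.55 RPKM in E294K, near the 2.25 RPKM of wt serum+LIF, and its log2 fold change to FH-Prdm14 was -2.07 ± 0.22 (adjusted p = 8.73e-05). Piwil2 was 4.13 and 4.08 RPKM in E294K (-1.25 ± 0.21, adjusted p = 0.00178), and Slc25a31 was 0.715 and 1.07 RPKM (-1.27 ± 0.21, adjusted p = 0.00189). For these 3 genes both E294K libraries were below both FH-Prdm14 libraries, but with 2 libraries per group this adds little, and the share of all genes was not counted. Taf7l was 1.2 and 0.881 RPKM in E294K (-1.07 ± 0.23, adjusted p = 0.00748), with an adjusted p of 0.0889 without E294K F10 and 0.0611 without FH-Prdm14 G6. Tdrd12 was the member called higher, at 43.1 and 42.6 RPKM (0.82 ± 0.27, adjusted p = 0.0471). Its adjusted p lay between 0.153 and 0.194 without any of the 4 libraries, E294K F10, E294K G6, FH-Prdm14 G6 or FH-Prdm14 F10. Hormad1, at 5.37 and 5.11 RPKM, differed from FH-Prdm14 by 0.07 ± 0.28 (adjusted p = 0.886), and Smc1b, at 8.37 and 8.14 RPKM, by 0.07 ± 0.33 (adjusted p = 0.9). Of the 6 primordial germ cell markers 5 were lower in E294K than in FH-Prdm14 (57.4 to 58.1 RPKM in sum against 178 to 180 RPKM), and so were 5 of 5 2-cell-like markers tested (median -3.18) and 2 of the 7 mESC markers. Their part in the result was not tested.

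Set against Prdm14-/-, the E294K lines differ in the substitution and in the overexpression of Prdm14, which cannot be told apart there. E294K and Prdm14-/- differed for 10 members, 6 higher and 4 lower in E294K (15.1% and 17.8% of all genes), with a median of 0.26 (all genes, 0). The members called were thus 17.1% and 11.4% of the 35, near those shares. After adjustment for GC content 5 were higher and 8 lower. Without Prdm14-/- G6 the count was 4, without E294K F10 it was 5 and without E294K G6 it was 2. Hormad1 was higher in E294K, at 1.36 ± 0.28 (adjusted p = 0.004), and Tdrd7 was lower, at -1.53 ± 0.24 (adjusted p = 0.00108), and both calls held whichever library was left out. Tdrd7 was 0.529 and 0.577 RPKM in E294K and 2.72 and 2.38 RPKM in Prdm14-/-. Dazl (-0.34 ± 0.22, adjusted p = 0.231), Piwil2 (-0.29 ± 0.21, adjusted p = 0.303), Piwil4 (0.30 ± 0.23, adjusted p = 0.335) and Taf7l (0.04 ± 0.23, adjusted p = 0.915) did not pass. A p above the threshold does not show that these levels are equal.

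The rescue lines were compared with each other to see whether they form 1 reference. Between FH-Prdm14 and FH-Mtgr1, 5 members were higher and 6 lower (26.2% and 15.4% of all genes), with a median of -0.02 (all genes, 0.11). Without FH-Prdm14 G6 that count of 11 was 7, and without FH-Prdm14 F10 it was 5. Dazl was higher in FH-Prdm14 at 2.47 ± 0.20 (adjusted p = 6.96e-06), Piwil4 at 1.39 ± 0.21 (adjusted p = 0.000426) and Piwil2 at 0.95 ± 0.19 (adjusted p = 0.00218), calls that held without any 1 library. Piwil4 passed the filter only with FH-Prdm14, so its call here is partly built in. Syce2 was lower in FH-Prdm14, at 29.0 and 31.2 RPKM and -1.49 ± 0.29 (adjusted p = 0.00198). Median-of-ratios scaling moved the median of all genes in this comparison from 0.11 to 0, and the share of all calls that were higher from 63.1% to 52.6%, and the members called became 5 higher and 8 lower. In FH-Prdm14 5 of 6 primordial germ cell markers, 5 of 5 2-cell-like markers and 4 of 7 mESC markers were higher than in FH-Mtgr1, and 2 of 4 primitive endoderm markers and 1 of 3 fibroblast markers were lower. Their part in the result was not tested.

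The last comparison is of medium, in wt cells. In wt 2i+LIF 17 members were lower and 2 higher, with the wt serum+LIF library as reference (13.6% and 9.28% of all genes), with a median of -1.03 (all genes, -0.10). A fit on these 3 libraries alone called 0 members and 0 genes, and voom over all 15 libraries called 23. Median-of-ratios scaling moved the median of all genes to 0.02 and the share of all calls that were higher from 40.6% to 53.4%, and called 15 members lower and 2 higher. The piRNA gene Mael was 3.52 and 3.23 RPKM in wt 2i+LIF against 61.7 RPKM (-4.01 ± 0.26, adjusted p = 1e-05), the largest drop in this comparison. Tdrd5 (-2.18 ± 0.26, adjusted p = 0.000236), Tex15 (-2.13 ± 0.43, adjusted p = 0.0051), Slc25a31 (-2.07 ± 0.26, adjusted p = 0.000354) and Taf7l (-2.04 ± 0.28, adjusted p = 0.000588) followed. Tdrd5 was 0.621 and 0.27 RPKM in wt 2i+LIF against 3.7 RPKM, Slc25a31 0.311 and 0.185 RPKM against 2.63 RPKM, and Taf7l 0.484 and 0.404 RPKM against 3.39 RPKM. Dazl went the other way, at 16.3 and 11.6 RPKM against 2.25 RPKM (2.38 ± 0.26, adjusted p = 0.000147). Hormad2 was also higher (0.78 ± 0.24, adjusted p = 0.0375), with an adjusted p of 0.0508 without wt 2i+LIF 1 and 0.0636 without wt 2i+LIF 2. Stag3, at 27.0 and 23.0 RPKM, did not pass (0.37 ± 0.31, adjusted p = 0.407). Ddx4 and Ddx25, which did not pass in Mtgr1-/-, were lower here (-1.78 and -1.59). Within wt 2i+LIF the pair of libraries lay apart for some members, such as Tex15 (1.11 and 0.325 RPKM) and Msh5 (1.26 and 0.27 RPKM). Of the mESC markers 3 of 7 were higher and 1 lower in wt 2i+LIF, 2 of 6 primordial germ cell markers were higher and 1 of 3 fibroblast markers was lower, and their part in the result was not tested.

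The remaining levels of the genes named above fill in the picture. Smc1b was 3.86 and 8.93 RPKM in Prdm14-/-, 7.5 and 8.18 RPKM in FH-Prdm14 and 3.88 and 7.13 RPKM in wt 2i+LIF. Stag3 was 16.2 and 14.6 RPKM in E294K, and Rec8 was 13.1 and 14.7 RPKM in Prdm14-/-, 14.4 and 15.6 RPKM in FH-Prdm14 and 6.73 and 7.14 RPKM in E294K. Rec8 in E294K was thus below both of those conditions, but its call against FH-Prdm14 (-1.06 ± 0.27, adjusted p = 0.0164) was lost without E294K F10, E294K G6, FH-Prdm14 G6 or FH-Prdm14 F10 (adjusted p of 0.0858, 0.098, 0.0806 and 0.0963). Sycp3 was 8.76 and 14.2 RPKM in Prdm14-/-, 9.02 and 7.64 RPKM in FH-Prdm14, 9.07 and 6.79 RPKM in E294K and 4.09 and 4.17 RPKM in wt 2i+LIF, and the first 3 overlap. Syce3 was 5.68 and 7.38 RPKM in E294K and 0.678 and 1.98 RPKM in wt 2i+LIF, where it overlapped Mtgr1-/-. Tdrd12 was 22.2 and 34.2 RPKM in Prdm14-/-, 23.6 and 24.4 RPKM in FH-Prdm14 and 18.6 and 26.4 RPKM in wt 2i+LIF, so wt serum+LIF was above every other library. Tex101 was 1.8 and 3.4 RPKM in Prdm14-/-, 1.48 and 1.44 RPKM in FH-Prdm14, 1.07 and 0.982 RPKM in E294K, 0.356 and 0.148 RPKM in wt 2i+LIF and 2.03 RPKM in wt serum+LIF. Its wt 2i+LIF values overlap those of Mtgr1-/-. Piwil4 was 0.129, 0.147 and 0.0335 RPKM in Mtgr1-/- and 0.302, 0.393 and 0.0894 RPKM in FH-Mtgr1, where the groups overlap, 0.524 and 0.485 RPKM in E294K and 0.107 and 0.178 RPKM in wt 2i+LIF. Mov10l1 was 5.64 and 5.00 RPKM in E294K, 5.69 and 3.06 RPKM in wt 2i+LIF and 8.1 RPKM in wt serum+LIF, and Piwil2 was 3.64 and 4.67 RPKM in wt 2i+LIF and 6.99 RPKM in wt serum+LIF. Both genes were highest in FH-Prdm14. Hormad1 was 5.86 and 6.15 RPKM and Rec8 10.9 and 5.85 RPKM in wt 2i+LIF, and Rec8 was 14.0 RPKM in wt serum+LIF. Mael was 36.9 and 28.4 RPKM in E294K.

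The 7 members under the filter were near the floor. Tdrd9 reached 1.17 RPKM (in FH-Prdm14 G6), Brdt 0.760 RPKM and Mei1 0.685 RPKM, and these 3 were the highest. Sycp2, which pairs with Sycp3 on the axis, stayed at or below 0.587 RPKM, and Asz1 at or below 0.671 RPKM. Tdrd6 reached 0.172 RPKM and Spo11, the enzyme that makes meiotic breaks, 0.0890 RPKM. Spo11 was listed at 0 in 8 of the 15 libraries.

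Genes of meiosis and piRNA production outside the 42 were counted from another list of 50, of which 44 were in the tables and 37 passed the filter. In Mtgr1-/- against FH-Mtgr1, 20 of them were lower and 7 higher (26.1% and 26.2% of all genes), with a median of -0.61. Dpep3, a meiotic cell surface dipeptidase, fell by 3.45 on the log2 scale, Gpat2, a piRNA factor, by 2.15, and Stra8, the retinoic acid target that starts meiosis, by 2.06. Stra8 is also the spermatogenic marker named above, so this is not a separate result. The 7 higher genes included Wdr77 (1.45 ± 0.19) and Trip13 (1.13 ± 0.14). In Prdm14-/- against FH-Prdm14, 11 were lower and 1 higher (13.8% and 11.4% of all genes). Of 14 PRC1.6 genes, 5 were higher and 1 lower in Mtgr1-/- than in FH-Mtgr1, where 26.2% and 26.1% of all genes were, so the count higher is not far from the share of all genes. E2f6 rose by 1.20 ± 0.17 and Max by 0.52 ± 0.12, and Mga fell by 0.98. In Prdm14-/- against FH-Prdm14, 1 of the 14 was higher and 2 lower, and Max fell by 0.64. Of 8 DNA methylation genes, 3 were higher and 2 lower in Mtgr1-/- than in FH-Mtgr1 (26.2% and 26.1% of all genes). Prdm14-/- against FH-Prdm14 also had 3 higher and 2 lower (11.4% and 13.8% of all genes). For wt 2i+LIF against wt serum+LIF, 1 was higher and 3 lower (9.28% and 13.6% of all genes). Among them the de novo DNA methyltransferase Dnmt3b rose in both knockouts against their rescue lines (1.39 ± 0.28 for Mtgr1 and 2.38 ± 0.35 for Prdm14). Dnmt3b fell by 4.23 in wt 2i+LIF. Of 6 H3K9 methylation genes, 3 were higher and 0 lower in Mtgr1-/- than in FH-Mtgr1 (26.2% and 26.1% of all genes). Setdb1, an H3K9 methyltransferase, and its partner Trim28 rose by 0.64 ± 0.14 and 0.98 ± 0.20 in that comparison. The part of these genes in the levels of the 42 was not tested.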

How the data were processed

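Polyadenylated RNA of 15 mESC libraries was sequenced as single-end reads by the authors, who aligned them with TopHat to mm9 with RefSeq gene models, counted them with HTSeq and deposited 1 RPKM value per gene and library. The submitters' notes list GRCm38 and mm9 without a role. Strand use in counting and the instrument of each library are not given in the sources used here. In every library 100% of gene values came out as whole numbers of reads (tolerance 0.01), so the reads were recovered; voom on them called 7227 genes between Mtgr1-/- and FH-Mtgr1, and the library totals on genes (10668572 to 21218414) are the depth. Every pair of replicate libraries differed beyond sampling noise.

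Genes with at least 1 RPKM in at least 2 libraries were fitted as log2(RPKM + 0.5) over all 15 libraries and 7 conditions with limma 3.58.1 (R 4.3.3), with Benjamini-Hochberg adjustment over 13477 genes and a threshold of 0.05. The test of the difference between the knockout effects was chosen after seeing the data. The fit was tested on simulated data with known changes. The 42 genes and all gene and marker lists were chosen with earlier results of these data known. Values per library were given for up to 15 tested members that passed the threshold and changed by 1 or more on the log2 scale, taking those that did so in most comparisons (ties by the range of log2 values), and the 3 highest members under the filter were named. Values per library of Syce2, Msh5, Tdrd5, Tdrd7 and Tex15, which are outside that rule, and other genes named were chosen after their values were seen. Rescue lines derive from the knockout clones, which pairs them by clone. The correlation of same-clone deviations was 0.299 for Prdm14-/- and FH-Prdm14, 0.08 for E294K and FH-Prdm14, 0.04 for E294K and Prdm14-/-, and -0.182 to 0.063 for the Mtgr1 lines.

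Alternatives were pseudocounts of 0.1 and 1, no filter, median-of-ratios scaling, voom on the recovered reads, lowess adjustment for GC content (span 0.3, 12046 genes) or gene length, only the compared conditions, a replicate block by parental clone, and leaving out each library. Promoters were the 250 bases before each RefSeq start (GRCm38.p6). Figures were drawn with matplotlib 3.10.9.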

Additional observations from a re-analysis of the deposited data

Results flagged for a closer look

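The knockout effect (knockout minus rescue) differed between the Mtgr1 and the Prdm14 lines for 16 members, by limma's test of the difference itself, which was chosen after seeing the data. On the Prdm14 side that effect also holds the overexpression of Prdm14 in FH-Prdm14. Among the cohesin and axis genes the difference in log2 fold change was -3.50 for Sycp3, -2.82 for Smc1b, -1.51 for Hormad1, -1.34 for Hormad2, -1.17 for Stag3 and -1.04 for Rec8. Among synaptonemal and recombination genes it was -4.42 for Syce3, -2.01 for Msh5 and 1.08 for Mei4. Among piRNA genes it was -2.60 for Tdrd12, -1.96 for Mael, -0.98 for Tex19.1 and 0.94 for Piwil4. It was -2.96 for Tex101, -1.37 for Mybl1 and 0.90 for Dazl.

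For 6 of these genes the call was lost in some of 19 alternatives. Tex19.1 lost it without Prdm14-/- F10, FH-Prdm14 G6 or FH-Prdm14 F10 and with no filter, and Stag3 without any of the same 3 libraries. Dazl and Piwil4 lost it with a pseudocount of 0.1, with voom, and without Prdm14-/- G6, FH-Prdm14 G6, FH-Prdm14 F10, Mtgr1-/- A3, Mtgr1-/- C1 or FH-Mtgr1 C3. Mei4 lost it without Prdm14-/- F10, FH-Prdm14 F10, Mtgr1-/- A3, Mtgr1-/- C1, FH-Mtgr1 A3 or FH-Mtgr1 C1. Rec8 kept it in 10 of the 19, with adjusted p up to 0.115. Their signs held in all 19.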

How the results depend on the processing

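Of 148 called values of single members over the 9 comparisons, 74 kept their call in every alternative, 74 lost it in at least 1, and 0 changed direction. The count of 25 between Mtgr1-/- and FH-Mtgr1 was 25 to 29, with Sycp1 no longer called after adjustment for GC content (26 called, 1 of them higher). For Prdm14-/- against wt serum+LIF the count of 13 was 7 with no filter, 7 after adjustment for GC content and 1 with only the compared conditions, and for wt 2i+LIF the count of 19 was 0 with only the compared conditions. For E294K against FH-Prdm14 the count of 10 was 16 with only the compared conditions and 18 with the replicate block. The replicate block gave 27 for Mtgr1-/- and 17 for Prdm14-/- against their rescue lines, 14 for E294K against Prdm14-/- and 18 for the difference of the knockout effects. Shares of all genes under the block are not given here, so these shifts are not results about the members. Leaving out 1 library gave 6 to 12 members for Prdm14-/- against FH-Prdm14, 3 to 5 for E294K against FH-Prdm14, 2 to 8 for E294K against Prdm14-/-, 5 to 11 for FH-Prdm14 against FH-Mtgr1, 4 to 12 for Prdm14-/- against wt serum+LIF and 10 to 16 for the difference of the knockout effects. The fits with fewer libraries have fewer degrees of freedom, and the cause of the other shifts was not tested. Members below 1 RPKM rest on few reads.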
